A study of Mus musculus with 257 samples.

Results

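The cerebella described here are the 18 libraries of the Shh-model background taken at P30+, from a series of 257 RNA-seq libraries of mouse cerebellum and medulloblastoma. They were sorted by their own level of Mki67, the gene of a nuclear protein found in cycling cells. Levels are counts scaled to a library total of 1000000 (CPM), not divided by gene length, so they compare libraries and not genes. A cerebellum with Mki67 at 100 CPM or more is called tumour-like here, and one under 10 CPM tumour-free. By this rule 11 cerebella were tumour-like, 5 were tumour-free and 2 lay in between and were left out, so that 16 of the 18 entered the sets. No label says whether a cerebellum held a tumour, and the names stand for the Mki67 level alone. Mki67 and every gene measured beside it in these libraries were in view when the sets were made, so the comparison of the sets is a description and carries no test.

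All 18 animals carried the Shh-model allele of Ptch1 together with Blbp-Cre, a recombinase driven by the promoter of the Blbp gene (Fabp7), which is active in radial glia and other neural progenitors. The 5 BPtch animals had no Ddx3x perturbation, so they are the controls of the background. Ddx3x is an X-linked gene for an RNA helicase. The 5 BPtchD-FLY animals were males with 1 floxed copy of it, the 3 BPtchD-FLFL animals females with 2 floxed copies, and the 5 BPtchD-FLPlus animals females with 1 floxed and 1 intact copy. The exact age beyond P30+ is not given in the sources used here. For reference, the text also uses 15 libraries labelled as Shh-model tumours (BPtch, BPtchD-FLY and BPtchD-FLPlus, 5 of each genotype), and 20 P30+ cerebella without the Ptch1 allele, 5 each of WT, BD-FLY, BD-FL-FL and BD-FLPlus. RNA came from whole flash-frozen tissue, so fewer cells of a type and less RNA per cell cannot be told apart in any value below.

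In the developing cerebellum, Purkinje cells release the ligand Shh, which binds the receptor Ptch1 on granule neuron progenitors. Ptch1 without ligand holds back Smo. Freed Smo lets the Gli transcription factors switch on genes for division such as Mycn and Ccnd2. Progenitors that leave the cycle become granule neurons, the most abundant neurons of the cerebellum, and these express the GABA receptor subunit gene Gabra6. Where Ptch1 is lost, progenitors can go on dividing and form the Shh subgroup of medulloblastoma.

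Totals ran from 614465 to 33370756 counts in the tumour-like libraries, with a median of 21326600, and from 20672991 to 28663303 in the tumour-free ones. BPtchD-FLY replicate 1, a tumour-like library, had the 614465 counts and stood apart in a further way. It held 308 CPM of Xist, the RNA of the inactive X chromosome in females, beside 99.3 CPM of the Y-linked Ddx3y, while the other 4 BPtchD-FLY cerebella held 2.43 to 6.26 CPM of Xist. Results of the set comparison are therefore also given without it. Mitochondrial genes took 1.62% to 3.71% of counts in the tumour-like and 3.36% to 3.91% in the tumour-free libraries, and the part of RNA quality in the differences was not tested. Nothing in the labels says whether libraries were prepared or sequenced in batches, and p-values below measure the spread between these libraries.

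Mki67 was at 1334, 1121 and 979 CPM in BPtch replicates 3, 4 and 5, and at 0.951 and 1.78 CPM in replicates 1 and 2. In BPtchD-FLY it was at 133, 750.5, 689, 75.7 and 87.9 CPM in replicates 1 to 5. BPtchD-FLFL replicate 1 had 120.2 CPM, and replicates 2 and 3 had 2.28 and 1.32 CPM. In BPtchD-FLPlus, replicates 1, 3, 4 and 5 had 1000.0, 628, 1075 and 470.3 CPM and replicate 2 had 1.64 CPM. The libraries fell at 3 heights: 9 at 470.3 CPM or more, 4 between 75.7 and 133 CPM and 5 at 2.28 CPM or less. The threshold of 100 CPM runs through the 4 in the middle, with BPtchD-FLFL replicate 1 just inside and BPtchD-FLY replicate 5 just outside. The 20 cerebella of the normal background had 0.506 to 2.93 CPM, a range that holds all 5 tumour-free libraries.

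Gli1, the transcription factor gene that reports Shh signalling most directly, had 43.9 CPM in the lowest tumour-like library, 196 CPM at the median and 365 CPM in the highest, against 21.3, 22.0, 15.9, 27.1 and 29.0 CPM in the tumour-free libraries. The 2 sets did not overlap for Gli1. Gabra6 had 1.99 CPM in the lowest tumour-like library, 184 CPM at the median and 599 CPM in the highest, against 693, 656, 477, 651 and 570.1 CPM in the tumour-free ones. The sets overlapped for Gabra6, because BPtchD-FLFL replicate 1 at 599 CPM and BPtchD-FLY replicate 1 at 478 CPM, both from the 4 libraries of middle Mki67, lay within the tumour-free range. Of the 9 libraries with the most Mki67, 8 had 259 CPM of Gabra6 or less, and BPtchD-FLPlus replicate 5 had 473 CPM. Mki67 follows the label by the rule itself, and Gli1 separated the sets. For Gabra6 the lowest tumour-like libraries were at the level of tumour-free tissue, and BPtchD-FLPlus replicate 5 lay just below it.

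**Figure D1:**
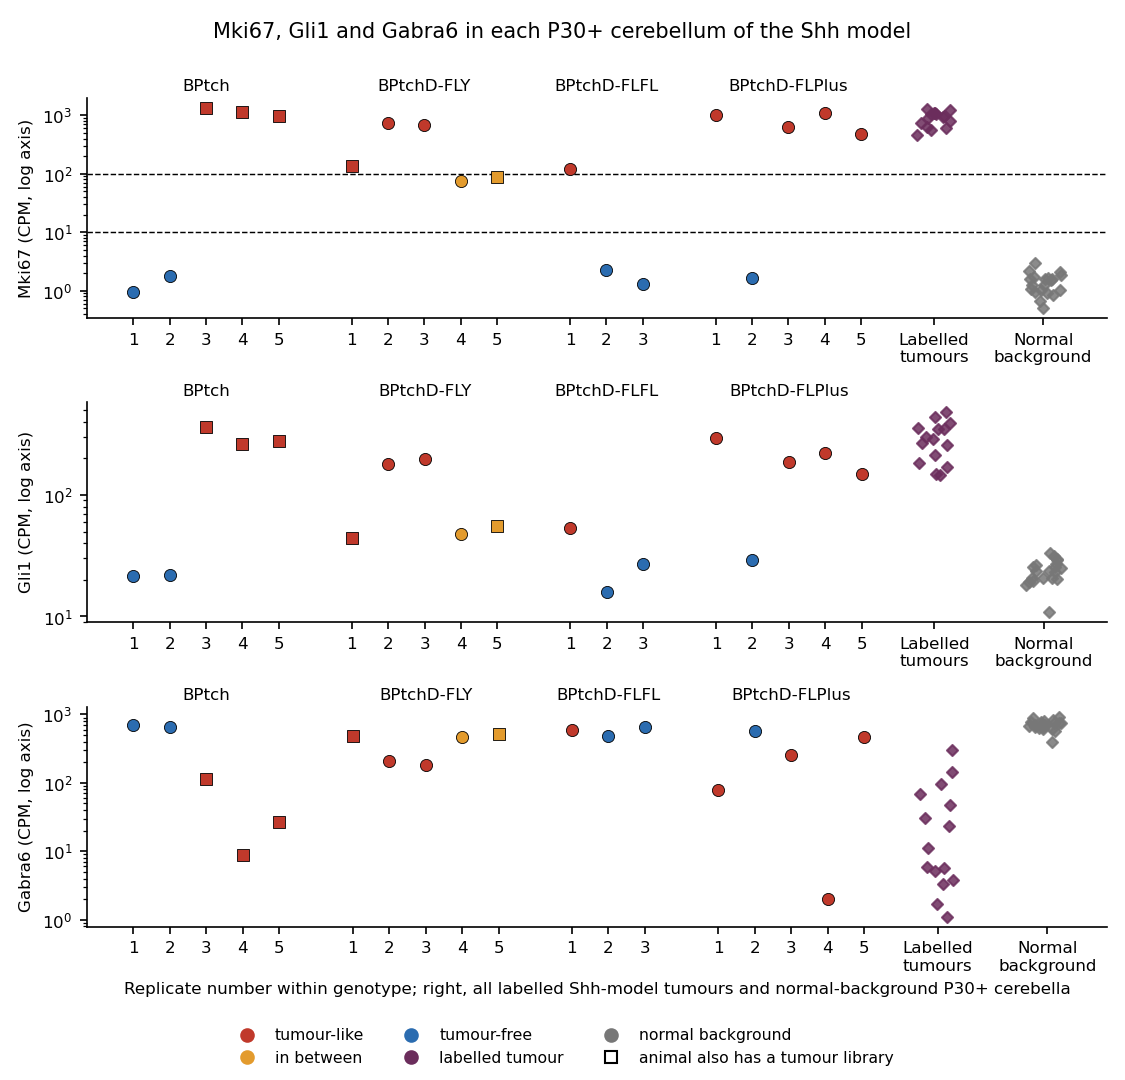
CPM of Mki67, Gli1 and Gabra6 (log axis) in each of the 18 P30+ Shh-model cerebella, 1 point per library, grouped by genotype and coloured by set (squares: animals with a tumour library), with the labelled tumours and the normal background at the right and the thresholds at 100 and 10 CPM of Mki67 drawn as lines. Mki67 falls at 3 heights, and the libraries at 75.7 to 133 CPM have Gabra6 between 468 and 599 CPM, beside the 477 to 693 CPM of the tumour-free libraries.

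Ddx3x was at 129, 141, 149 and 203 CPM in BPtchD-FLY replicates 2, 3, 4 and 5 and at 345 CPM in replicate 1, against 390.3 to 764 CPM in BPtch. In BPtchD-FLFL it was at 439.5, 464 and 424 CPM, and in BPtchD-FLPlus at 413, 413, 599, 441 and 500.2 CPM. The counts cover the whole gene, so they do not separate transcripts with and without the floxed part, and only the BPtchD-FLY libraries lay below every BPtch library. Within BPtch, the 3 tumour-like cerebella had 738 to 764 CPM and the 2 tumour-free ones 390.3 and 535 CPM. Over both whole sets Ddx3x overlapped, at a log2 ratio of means of 0.10 that turned to -0.09 with TMM-scaled library sizes. Ptch1 was at 322 to 1145 CPM in the tumour-like and 260.0 to 331 CPM in the tumour-free libraries, a log2 ratio of 1.32, and overlapped through BPtchD-FLFL replicate 1. Fabp7 was at 18.4 to 106 CPM against 10.2 to 19.8 CPM, a log2 ratio of 1.91, and overlapped through BPtchD-FLPlus replicate 5. The tumour-free libraries were themselves low in Fabp7, at a log2 ratio of -1.54 to the normal background, with overlap. Labelled tumours against normal cerebella gave 0.22, so the ratio of 1.91 is not a rise above normal tissue of that size.

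Tumour-like cerebella were 3 of 5 in BPtch, 3 of 5 in BPtchD-FLY, 1 of 3 in BPtchD-FLFL and 4 of 5 in BPtchD-FLPlus. The BPtchD-FLFL count rests on the library at 120.2 CPM, and at 200 CPM of Mki67 or more the counts are 3 of 5, 2 of 5, 0 of 3 and 4 of 5 in the same order. Without BPtchD-FLY replicate 1, whose Xist and Ddx3x levels differ from the rest of its genotype, BPtchD-FLY has 2 of 4. Both cerebella in between were BPtchD-FLY, and no BPtchD-FLY cerebellum was tumour-free, whereas 2 BPtch, 2 BPtchD-FLFL and 1 BPtchD-FLPlus cerebella were. Fisher's exact test over the 4 genotypes, two-sided, gave p = 0.906 for tumour-like or not, 0.218 at 200 CPM and 0.722 without BPtchD-FLY replicate 1, and each genotype against BPtch gave an adjusted p of 1.0 over 3 tests. Mean log2 Mki67 differed from BPtch by 1.18 in BPtchD-FLY, -3.29 in BPtchD-FLFL and 1.35 in BPtchD-FLPlus, with an SD of 4.90 among the 5 BPtch animals themselves. Over these and the same differences of Gli1 and Gabra6, the exact permutation test, two-sided, gave adjusted p from 0.804 to 0.984 in 9 tests. The smallest p it could give was 0.00794 for 5 against 5 animals and 0.0179 for 3 against 5. No difference by genotype exceeded the spread between animals at this number of animals.

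Across 19099 genes that passed the low-count filter, 2140 genes, or 11.2%, had every tumour-like library above every tumour-free one. A further 649 genes, or 3.4%, had every tumour-like library below, which makes 2789 genes or 14.6% in all. The median log2 ratio of mean CPM over all genes was 0.16, and ratios below are read against it. The count depended on the 2 lowest tumour-like libraries: without BPtchD-FLY replicate 1 it was 4496 of 19190 genes, 23.4%, and without BPtchD-FLFL replicate 1 it was 4824. Among the 9 cerebella at 200 CPM of Mki67 or more, the 8377 genes that did not overlap the tumour-free set made up 43.8% of 19120, with 5757 higher, 30.1%, and 2620 lower, 13.7%. Without BPtchD-FLY replicate 1, 17.3% of all genes were higher and 6.09% lower, and list counts near these shares are not read as a result. Of the lists below, 8 of 15 Shh pathway, 12 of 15 Shh target and 6 of 10 early granule neuron genes were then higher. So were 5 of 9 cell cycle inhibitor, 3 of 11 p53 target and 4 of 8 macrophage genes. Lower were 3 of 9 interneuron, 2 of 13 oligodendrocyte, 5 of 12 vascular and 5 of 5 blood genes. So were 1 of 14 granule neuron, 1 of 10 early granule neuron, 1 of 10 radial glia and 2 of 9 meningeal genes. The 15 proliferation genes beside Mki67, 15 DNA replication and 7 granule progenitor genes were higher, the numbers found with BPtchD-FLY replicate 1.

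The proliferation list holds 15 genes beside Mki67, whose separation the rule itself fixed. All 15 were higher without overlap, at a median log2 ratio of 6.86 and a range from 3.94 for Bub1b, a spindle checkpoint kinase gene, to 8.47 for Top2a. Top2a, the topoisomerase that untangles chromosomes, had 99.3 CPM in the lowest tumour-like library, 545 CPM at the median and 910.4 CPM in the highest, against 0.476 to 2.47 CPM in the tumour-free ones. Cenpf, a kinetochore gene, had 40.9 to 380.0 CPM against 0.293 to 1.47 CPM, and Aurkb, the kinase gene of chromosome segregation, 9.47 to 89.8 CPM against 0.0366 to 0.290 CPM. The summed level of these 15 genes was 379.9 to 3314 CPM in tumour-like, 238 and 275 CPM in the in-between and at most 28.3 CPM in tumour-free cerebella. Of the DNA replication list, 15 of 16 genes were higher without overlap, beside 11.2% of all genes, at a median of 3.62. Rrm2, a subunit of the enzyme that makes deoxynucleotides, led it at 6.52, followed by Cdc6 at 5.61, a loader of the replicative helicase, and Mcm3 at 5.21, a subunit of that helicase. Ccne1, the cyclin E gene of S-phase entry, was the 1 member that overlapped, at 0.23.

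The 12 highest ratios over all genes, list members included, began with Ndc80, a kinetochore gene, at a log2 ratio of 10.01 that rests on 4 counts over the 5 tumour-free libraries. It was followed by Tecta at 9.39, Nhlh1 at 9.32, Kif18b at 9.21, Atoh1 at 9.14, Hsd11b2 at 8.91 and Melk at 8.90. Draxin, Pclaf, Pbk and Top2a came after Mki67, between 8.80 and 8.47. Ndc80, Kif18b, Melk, Pclaf and Pbk belong to the cell cycle. Atoh1 and Nhlh1 are transcription factor genes of the granule lineage, and Draxin encodes an axon guidance protein. Tecta, a gene of the inner ear's tectorial membrane, had 0.938 CPM in the lowest and 516 CPM in the highest tumour-like library against 0.0732 to 0.221 CPM in the tumour-free ones.

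Among 8696 genes with a mean of at least 20 CPM, the Spearman correlation with Mki67 was 0.996 for Rnd3, a gene of a small GTPase, 0.994 for Aurkb and Gas2l3, 0.992 for Hells, a chromatin remodelling gene, and Top2a, and 0.990 for Kif22, Ube2c, Kif11, Kif20a and Brca1, the last a DNA repair gene. Aurkb, Top2a and Kif11 are also on the proliferation list. The 18 libraries share the split into high and low Mki67, so these values describe that order and nothing else. Promoters of Mki67 and of 3 genes of this group, Top2a, Kif11 (a spindle motor) and Ube2c (a ubiquitin carrier of mitotic exit), are printed because these genes ordered the 18 libraries nearly alike. The sequences are RefSeq's, from GRCm38.p6, from 250 bases before to 50 bases after the gene's start, read 5′ to 3′ on the gene's strand. Capitals mark CCAAT, the box bound by NF-Y, and TTTGAA, the core of the cell cycle homology region known from G2/M promoters, on either strand (ATTGG and TTCAAA when reversed), with copies that overlap counted each.
Mki67, chr7:135716330-135716629, minus strand: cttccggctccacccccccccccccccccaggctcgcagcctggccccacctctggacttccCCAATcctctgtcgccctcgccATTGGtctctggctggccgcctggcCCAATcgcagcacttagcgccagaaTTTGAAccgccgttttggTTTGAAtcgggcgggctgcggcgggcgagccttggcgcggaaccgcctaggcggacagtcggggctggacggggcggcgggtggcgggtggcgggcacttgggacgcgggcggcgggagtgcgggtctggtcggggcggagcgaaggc
Top2a, chr11:99024140-99024439, minus strand: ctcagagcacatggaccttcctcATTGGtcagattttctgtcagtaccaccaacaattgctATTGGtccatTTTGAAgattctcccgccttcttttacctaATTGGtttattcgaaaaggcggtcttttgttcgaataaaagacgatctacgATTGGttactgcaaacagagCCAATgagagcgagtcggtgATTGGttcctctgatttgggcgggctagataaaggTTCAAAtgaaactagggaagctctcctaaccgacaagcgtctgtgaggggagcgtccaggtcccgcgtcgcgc
Kif11, chr19:37376132-37376431, plus strand: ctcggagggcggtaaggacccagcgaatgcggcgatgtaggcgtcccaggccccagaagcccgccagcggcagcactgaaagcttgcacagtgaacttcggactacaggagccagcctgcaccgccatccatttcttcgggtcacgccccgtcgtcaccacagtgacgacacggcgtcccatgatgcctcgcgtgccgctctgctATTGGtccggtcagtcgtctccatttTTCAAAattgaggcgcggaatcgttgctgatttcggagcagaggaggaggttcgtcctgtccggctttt
Ube2c, chr2:164769679-164769978, plus strand: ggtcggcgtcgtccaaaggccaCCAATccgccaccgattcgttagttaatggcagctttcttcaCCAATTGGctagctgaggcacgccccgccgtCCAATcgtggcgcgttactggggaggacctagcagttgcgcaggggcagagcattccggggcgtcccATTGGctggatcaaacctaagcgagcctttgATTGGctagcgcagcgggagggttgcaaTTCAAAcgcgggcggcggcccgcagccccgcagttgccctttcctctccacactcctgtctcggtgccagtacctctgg
CCAAT stands 3 times in the window of Mki67, 6 times in that of Top2a, 1 time in Kif11 and 6 times in Ube2c, and TTTGAA 2, 2, 1 and 1 times. Over all 32851 RefSeq promoters of this length, 37.4% hold CCAAT, 17.9% hold TTTGAA and 6.95% hold both. These shares are per promoter. The lists below count a gene once if any of its promoters matches, which can raise their counts. Of the 13 proliferation genes with a promoter in the table, 12 hold CCAAT and 9 hold both, and of the 8 such genes among the 10 closest to Mki67, 7 hold CCAAT and 4 hold both. Of the 13 DNA replication genes with a promoter, 8 hold CCAAT and 1 holds both, or 7.69%. Of the 10 granule neuron genes with a promoter, 4 hold CCAAT and none holds both. A match describes letters in the window and is neither a bound site nor a cause.

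Part of the Shh pathway was higher. Of its 15 genes that passed the filter, 7 were higher without overlap and none lower, at a median log2 ratio of 1.32. Over all genes 11.2% were higher and 3.4% lower. Smo, the signal transducer, had 30.6 to 173 CPM against 16.8 to 27.6 CPM, a ratio of 2.42. Hhip, a membrane decoy for the ligand, had 10.7 to 55.2 CPM against 6.29 to 9.96 CPM, a ratio of 2.06. The in-between libraries lay at 5.20 and 8.76 CPM of Hhip, the first below the tumour-free range and the second within it. The co-receptor genes Boc at 0.91 and Gas1 at 1.10 overlapped, and so did Cdon at -0.93.

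Downstream of Smo, Gli2 was at a ratio of 3.91, Sufu, which restrains the Gli proteins, at 2.34, and Kif7, the ciliary kinesin gene of the pathway, at 2.23. All 3 were higher without overlap, as was Gli1 at 3.14. Gli3, mostly a repressor, overlapped at 0.06, as did Spop at -0.68, whose product helps to degrade Gli proteins. The ligand gene Shh had 0.0552 to 6.51 CPM in tumour-like and 3.09 to 6.48 CPM in tumour-free libraries, a ratio of -1.66 with overlap. Among the 9 libraries at 200 CPM of Mki67 or more, 10 of the 15 genes were higher without overlap, beside 30.1% of all genes. Ptch1, Boc and Gas1 had joined the higher ones. The 2 genes lower without overlap were Shh at -2.60 and Spop at -0.87, a number near the 13.7% lower over all genes.

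Of 15 Shh target genes, 11 were higher without overlap, beside 11.2% of all genes, at a median of 3.63, and none lower. Atoh1, the transcription factor that holds granule progenitors in the progenitor state, had 5.77 CPM in the lowest tumour-like library, 65.7 CPM at the median and 128 CPM in the highest. In the 5 tumour-free libraries it had 0.0349 to 0.290 CPM, and in the normal background 0 to 0.0748 CPM. Foxm1, a transcription factor gene of mitotic entry, was at a ratio of 6.73, and Mycn, with 32.8 to 345 CPM against 3.31 to 3.84 CPM, at 5.93. Ccnd2, the D cyclin of granule progenitors, had 91.3 to 1773 CPM against 7.61 to 32.3 CPM, and Sfrp1, which encodes a secreted Wnt modulator, 99.8 to 1376 CPM against 6.62 to 29.9 CPM. Ptch1, Boc, Pdlim3 at 3.20 and Eya1 at -0.94 overlapped.

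**Figure D2:**
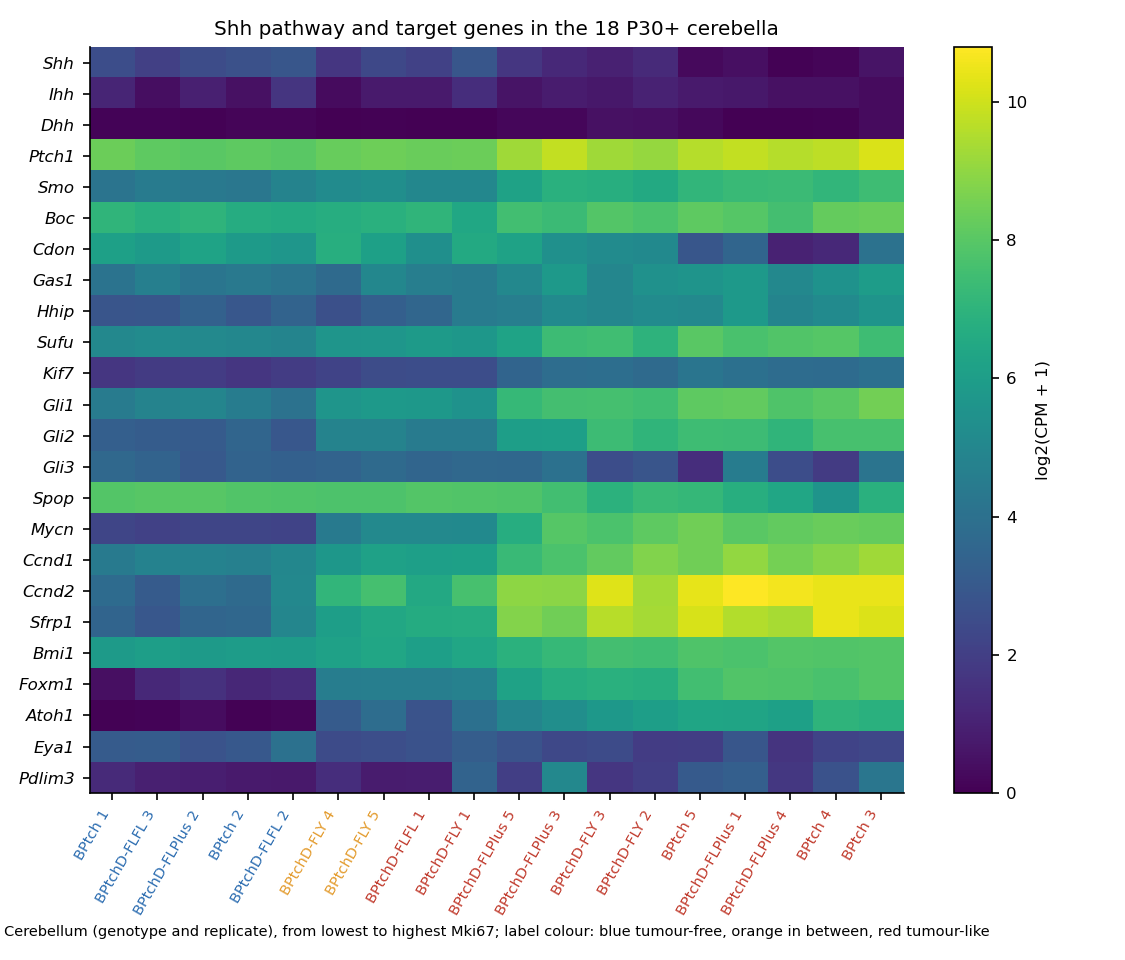
Level of Shh pathway and Shh target genes, as log2(CPM + 1) by colour, in the 18 P30+ cerebella, from lowest to highest Mki67. Gli2, Mycn, Ccnd2, Sfrp1 and Atoh1 are higher in all 11 tumour-like libraries than in the 5 tumour-free ones, while Shh, Cdon and Eya1 overlap.

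Of 10 granule progenitor genes, 7 were higher without overlap at a median of 2.94, led after Atoh1 by the transcription factor genes Sox11 at 6.30, Mycn, Barhl1 at 4.44 and Sox4 at 4.30. The 3 members that overlapped were Zic1 at 0.32, Zic2 at -0.17 and Zic5 at 0.49, zinc finger genes that mature granule neurons also express. Of 10 early granule neuron genes, 5 were higher, beside 11.2% over all genes, at a median of 1.30. Among them Nhlh1 had 24.4 to 343 CPM against 0.0366 to 0.507 CPM, and Dcx, a microtubule protein of migrating neurons, stood at 5.81. Neurod1, at 255 to 685 CPM against 232 to 368 CPM, overlapped.

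Of 9 cell cycle inhibitor genes, 4 were higher without overlap, beside 11.2% of all genes. They were Cdkn1b at a log2 ratio of 0.94, Cdkn2b at 3.18, Cdkn2c at 3.85 and Trp53 at 2.50. The list's median was 1.08. Cdkn2a, the Ink4a and Arf locus, had 0 to 46.1 CPM in tumour-like and 0 to 0.184 CPM in tumour-free libraries and overlapped only because BPtchD-FLY replicate 1, the shallow library, was at 0. Without that library Cdkn2a is the fifth inhibitor gene higher without overlap. Of 11 p53 target genes, 2 were higher, near the 11.2% over all genes, and the count is not read as a result about the list. These were Trp53inp1 at 1.76 and Eda2r at 6.24, a receptor gene of the tumour necrosis factor family. Cdkn1a, a textbook p53 target, overlapped at 25.4 to 84.0 CPM against 13.5 to 32.7 CPM.

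Genes of mature neurons were lower on average without separating the sets. None of 14 granule neuron genes lay below the tumour-free libraries in every tumour-like one, although the median ratio was -1.34. The same held for none of 11 Purkinje genes, at a median of -1.49, and for 1 of 9 inhibitory interneuron genes, at a median of -1.43. That gene was Pax2, a transcription factor of immature interneurons, beside 3.4% of all genes lower. The summed granule neuron level was 539 to 8334 CPM with a median of 2954 CPM in tumour-like cerebella, against 5636 to 8868 CPM in tumour-free ones. The summed Purkinje level was 107 to 9837 CPM against 7099 to 10989 CPM. Among the 9 cerebella at 200 CPM of Mki67 or more, 13.7% of all genes were lower without overlap. Of the lists, 7 of 14 granule neuron, 8 of 11 Purkinje and 6 of 9 interneuron genes were, at medians of -1.83, -2.16 and -1.93. Neuronal genes thus spread over a wide range inside the tumour-like set: Pcp2, the Purkinje cell protein gene, had 0.497 CPM in the lowest and 197 CPM in the highest of its libraries.

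In each of the 4 glial lists 1 gene separated the sets, beside 11.2% higher and 3.4% lower over all genes, and no list is read as different from that. Of 13 oligodendrocyte genes, Cnp, a myelin enzyme gene, was the 1 lower without overlap at -1.15, and the median was -1.16. Mbp, the myelin basic protein gene, had 183 to 1376 CPM against 1188 to 2175 CPM. Of 6 oligodendrocyte precursor genes, C1ql1 was higher without overlap at 4.38, with 9.76 to 151 CPM against 2.08 to 8.87 CPM. Pdgfra, the growth factor receptor gene that defines these precursors, had 47.0 to 696 CPM against 30.5 to 48.2 CPM, a ratio of 3.40 with overlap. Of 11 astroglia genes S100b was lower at -1.15, and of 10 radial glia genes Nes, the nestin gene, higher at 2.60.

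The counts of this paragraph stand beside 11.2% of all genes higher without overlap and 3.4% lower. Of 12 microglia genes, the 3 complement genes C1qa, C1qb and C1qc and the receptor gene Trem2 were higher without overlap, at ratios from 1.77 to 2.22. Cx3cr1, P2ry12 and Tmem119, which define homeostatic microglia, overlapped, at 0.85, 0.04 and -0.11, and so did Siglech at -1.08. Of 8 macrophage genes, Lyz2 at 4.17, Ms4a7 at 4.21 and Cd68 at 3.04 were higher, and the summed macrophage level was 64.4 to 486 CPM against 15.7 to 51.2 CPM. Of 8 T cell genes 3 passed the count filter and none separated the sets, and Cd3d, Cd3e, Cd3g and Cd8a did not pass it. Of 5 blood genes 4, the adult globin genes Hba-a1, Hba-a2, Hbb-bs and Hbb-bt, were lower, with ratios from -2.32 to -2.49 and a summed blood level of 5.15 to 83.0 CPM against 106 to 229.9 CPM. The endothelial gene Flt1 at -1.24 and the pericyte genes Pdgfrb at -0.86 and Rgs5 at -0.70 were lower among 12 vascular genes. Of 9 meningeal genes Igf2 was lower at -2.29, and this single gene is not read as a result about the list.

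The 12 lowest ratios by the same rule were led by Slit2 and Slc13a4, both at -2.73. Slit2 encodes an axon guidance ligand, and Slc13a4 a sulfate transporter of the meninges and choroid plexus. The 4 globin genes and Igf2 followed, with Fmod at -2.16, Slc13a3 at -2.08, the neurofilament gene Nefl at -1.99, the potassium channel gene Kcnc4 at -1.97 and Dnah6 at -1.90. Choroid plexus genes had the lowest median of any list, -3.75, but all 7 overlapped. Their sum was 52.3 to 2117 CPM in tumour-like and 138 to 7609 CPM in tumour-free libraries, and Ttr, the choroid plexus transthyretin gene, ran from 6.14 to 4306 CPM among the 5 tumour-free libraries alone. How much choroid plexus and meninges each dissection took was not tested as a part of these differences.

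**Figure D3:**
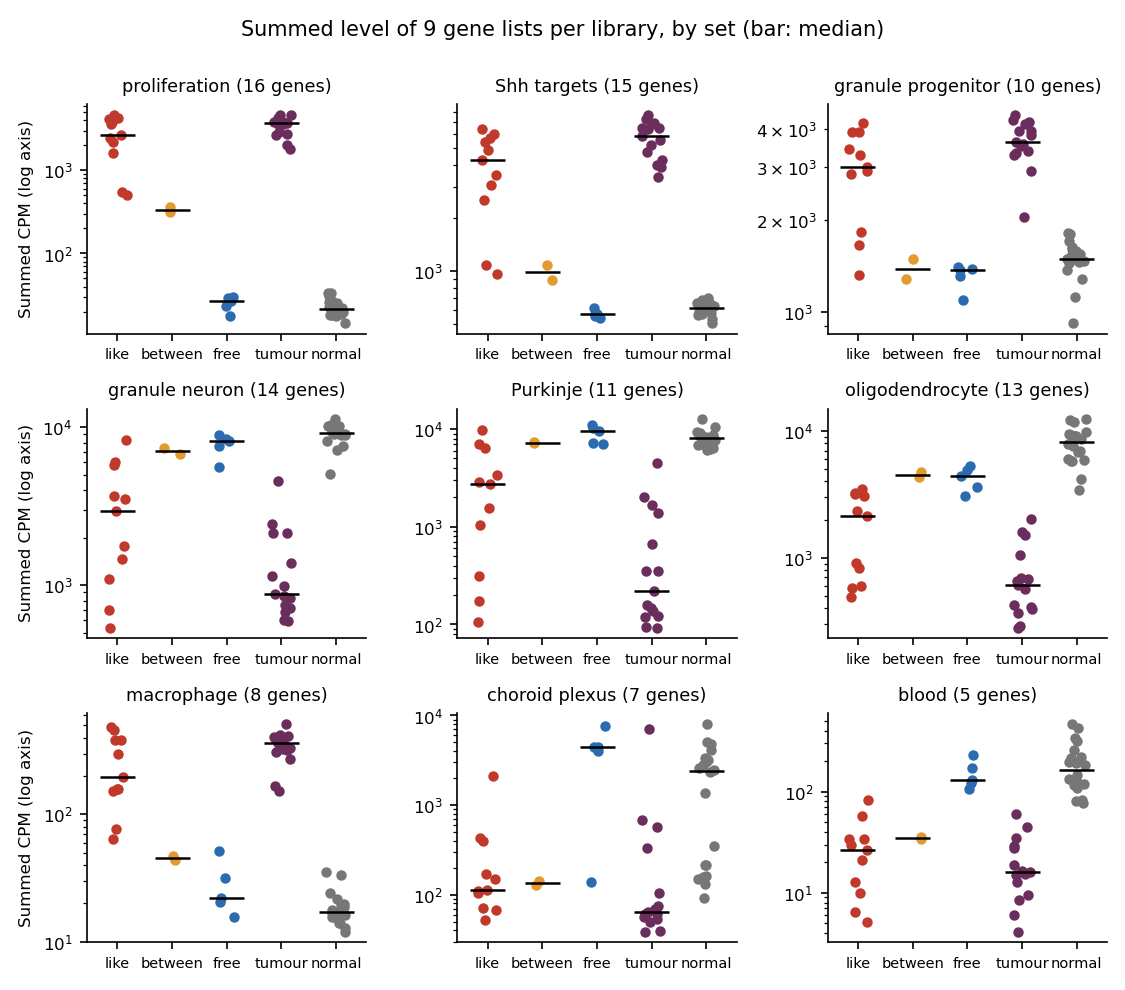
Summed CPM (log axis) of 9 gene lists, 1 point per library with a bar at the median, for tumour-like, in-between and tumour-free cerebella, labelled tumours and normal-background cerebella. The proliferation panel includes Mki67, the gene of the rule, and without it the sums are 379.9 to 3314 CPM in tumour-like and at most 28.3 CPM in tumour-free cerebella, while the granule neuron and Purkinje sums of the tumour-like set reach from the level of the labelled tumours into that of the tumour-free set.

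The 4 cerebella with Mki67 at 75.7 to 133 CPM, 3 BPtchD-FLY and 1 BPtchD-FLFL, had proliferation genes above the tumour-free level and neuronal genes near it. Against the tumour-free set, 1417 genes, 7.42% of 19099, were higher without overlap and 432, 2.26%, lower, around a median log2 ratio of 0.04 over all genes. All 15 proliferation genes beside Mki67 were higher at a median of 4.16, as were 15 of 16 DNA replication genes at 1.46, 10 of 15 Shh target genes at 1.57 and 6 of 10 granule progenitor genes. None of 14 granule neuron, 11 Purkinje or 13 oligodendrocyte genes separated the 4 libraries from the tumour-free set, and their medians were -0.09, -0.19 and -0.08. The 4 globin genes were lower here too, at ratios from -1.45 to -1.62, and Lyz2 and Cd68 were higher at 1.68 and 1.10. One of the 4 is the shallow BPtchD-FLY replicate 1.

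Between the tumour-free Shh-model cerebella and the 20 normal-background cerebella, 245 of 19099 genes, or 1.28%, did not overlap. With 5 libraries against 20, separation is harder to reach than with 11 against 5. The share therefore cannot be set beside the 14.6% above as a measure of closeness. Median log2 ratios were 0.02 for proliferation, -0.14 for Shh targets and -0.21 for granule neuron genes, around 0.03 over all genes. Bmi1, a Polycomb gene, was the 1 Shh target higher without overlap, at 58.5 to 65.3 CPM against 41.3 to 57.7 CPM. Gli1 at 15.9 to 29.0 CPM lay inside the normal range of 10.8 to 33.5 CPM. Of 10 radial glia genes 1 was lower without overlap, as was 1 of 6 oligodendrocyte precursor genes, beside 0.545% of all genes. Single genes are not read as results about these lists. Fabp7 was at a ratio of -1.54 with overlap. Larger medians stood in lists that overlapped throughout: immediate early genes at -1.18, choroid plexus genes at 1.12, brainstem and midbrain neuron genes at 1.08, interferon response genes at 0.96, oligodendrocyte genes at -0.91, meningeal genes at 0.75 and macrophage genes at 0.65. The part of the dissection in these was not tested. The 2 groups of animals also differed in their mix of Ddx3x genotypes and sexes. No tumour-free cerebellum was BPtchD-FLY, while 5 of the 20 normal ones were BD-FLY. The Ptch1 allele, Ddx3x genotype, sex and any difference in handling therefore cannot be told apart here.

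Against the 15 labelled tumours, no gene of 19099, 0%, separated all 11 tumour-like cerebella from all tumours. Both groups spread widely, so this overlap does not mean like levels. The summed Purkinje level had a median of 2771 CPM in the tumour-like set and 218 CPM in the tumours. The granule neuron sum had medians of 2954 and 879 CPM in the same order. The tumours had 466 to 1292 CPM of Mki67, 145 to 478 CPM of Gli1 and 1.10 to 306 CPM of Gabra6. The 9 cerebella with the most Mki67 lay within these ranges for Gli1 and, but for BPtchD-FLPlus replicate 5 with 473 CPM, for Gabra6 and, but for BPtch replicate 3 at 1334 CPM, for Mki67. The summed oligodendrocyte level of the tumour-like set had a median of 2136 CPM, between 612 CPM in the tumours and 4429 CPM in the tumour-free set. The macrophage sum had a median of 195 CPM, between 22.2 CPM in the tumour-free cerebella and 363 CPM in the tumours.

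The direction of these differences was tested in libraries that the Mki67 rule did not sort, the 15 labelled tumours against 15 normal cerebella of WT, BD-FLY and BD-FLPlus, with edgeR's quasi-likelihood test and Benjamini-Hochberg adjustment over 18757 genes. It called 8048 genes higher, 42.9%, and 7775 lower, 41.5%. Mki67 rose by 9.26 ± 0.22 on the log2 scale (adjusted p = 1.79e-24), Gli1 by 3.33 ± 0.16 (adjusted p = 8.82e-18) and Ptch1 by 1.24 ± 0.11 (adjusted p = 1.52e-11), and Gabra6 fell by 4.31 ± 0.66 (adjusted p = 7.21e-07). The sign ± marks the standard error of a log2 fold change throughout. Ddx3x at 0.09 ± 0.16 and Fabp7 at 0.22 ± 0.25 were not called, with adjusted p of 0.586 and 0.408.

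All 16 proliferation genes rose in the tumours, at a median of 7.36, as did all 16 DNA replication genes and all 9 cell cycle inhibitor genes, the last at a median of 1.08. Of 15 Shh targets 14 rose and Eya1 fell, and of 15 pathway genes 10 rose and 3 fell. All 14 granule neuron genes fell at a median of -3.66, all 11 Purkinje genes at -3.87, and 11 of 13 oligodendrocyte genes at -4.06 over the list, with 1 that rose. Of 8 macrophage genes 5 rose and 1 fell, all 5 blood genes fell, and 11 of 12 vascular genes fell. The largest rises were Atoh1 at 12.41 ± 0.36, Hsd11b2 at 11.17 ± 0.41, Nhlh1 at 10.42 ± 0.23, Pclaf at 9.82 ± 0.22 and Myod1 at 9.80 ± 0.54, a myogenic transcription factor gene with 0.893 to 76.7 CPM in the tumours. The largest falls were the oligodendrocyte genes Opalin at -5.78 ± 0.49 and Mog at -4.72 ± 0.47, followed by Ttr at -4.60 ± 1.74, whose tumour libraries ran from 0.570 to 4144 CPM. By the edgeR test the adjusted p of these 8 genes was at most 0.0161.

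Of the 2140 genes higher in all tumour-like cerebella, 2080 were called higher in the tumours, 97.2% of that group and 25.8% of the 8048 tumour calls. One was called lower and 59 were not called. Of the 649 lower genes 640 were tested, and 631 of these were called lower in the tumours, 98.6%, which is 8.12% of the 7775 tumour calls. None was called higher and 9 were not called. Among listed genes that overlapped between the sets, direction did not always carry over. Of interferon response genes called higher in the tumours, Ifit1, Isg15, Ifih1 and Usp18 had set ratios of -0.87, -0.17, -0.27 and -0.36. Bst2 and Rsad2, also called higher there, had set ratios of 0.01 and 0.46. Dusp1, an immediate early gene, was at 0.60 in the sets and at -1.16 in the tumours. Across 18611 genes in both tables, the log2 ratio of the sets and the log2 fold change of the tumours had a Spearman correlation of 0.947 and a Pearson r of 0.934. The 2 comparisons share no library, but 5 tumours come from animals whose cerebella are among the 18, and genes are not independent replicates.

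**Figure D4:**
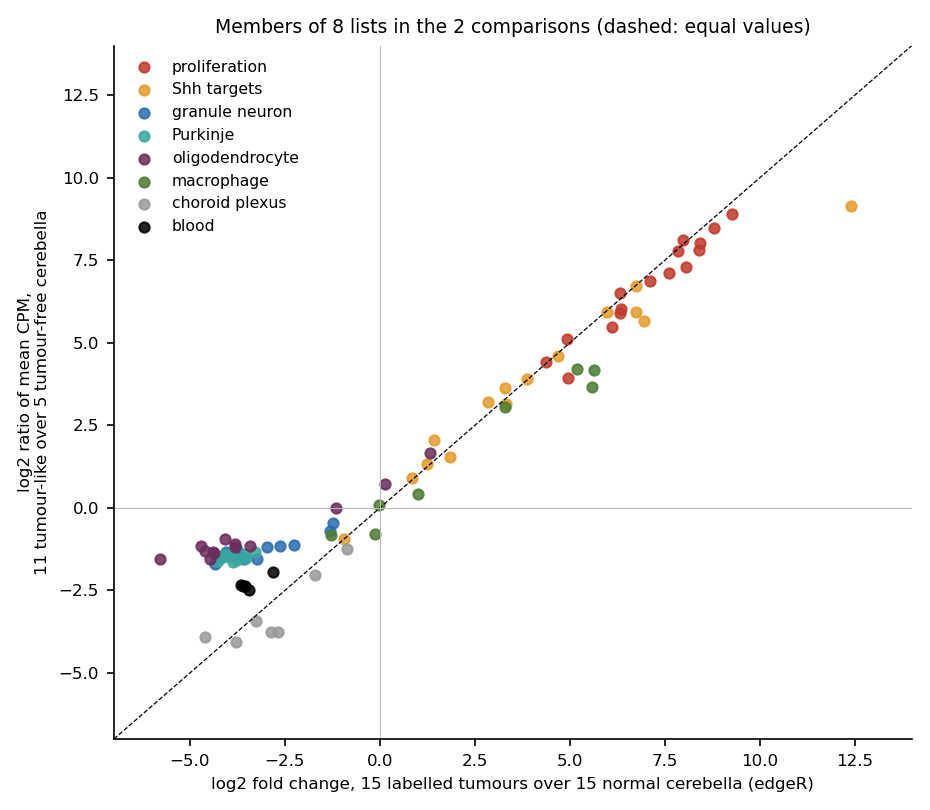
Each point is 1 gene, placed by the log2 fold change of 15 labelled tumours over 15 normal cerebella (edgeR, horizontal) and the log2 ratio of mean CPM of 11 tumour-like over 5 tumour-free cerebella (vertical), for the members of 8 lists, with a dashed line of equal values. Proliferation genes lie at the upper right, and granule neuron and Purkinje genes at the lower left, with ratios near -1.34 and -1.49 on the vertical and -3.66 and -3.87 on the horizontal axis at the median.

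Animal numbers in the labels tie 5 of the 18 cerebella to a tumour library of the same animal. Of these, 4 were tumour-like, BPtch replicates 3, 4 and 5 and BPtchD-FLY replicate 1, and 1 lay in between, BPtchD-FLY replicate 5. None of the 5 tumour-free cerebella came from such an animal, nor did 7 of the 11 tumour-like ones. In the 3 BPtch animals cerebellum and tumour were at a like level of Mki67. Mki67 was at 1334 CPM in the cerebellum and 1106 CPM in the tumour of the animal of BPtch replicate 3, at 1121 and 739 CPM in that of replicate 4, and at 979 and 1231 CPM in that of replicate 5. In BPtchD-FLY it was at 133 and 1036 CPM for replicate 1 and at 87.9 and 466 CPM for replicate 5.

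Neuronal genes split the same animals. The Purkinje sum was at 6964 CPM in the cerebellum and 139 CPM in the tumour for BPtchD-FLY replicate 1, and at 7145 and 4519 CPM for replicate 5. For BPtch replicates 3 and 5 it was at 1572 and 353 CPM and at 314 and 92.9 CPM, and for replicate 4 it was lower in the cerebellum, at 175 CPM, than in the tumour, at 2011 CPM. The granule neuron sum had the same exception, at 697 CPM in the cerebellum and 2429 CPM in the tumour of the replicate 4 animal. With the animal as a block, edgeR called 0 of 19748 genes between tumour and cerebellum, 0%, with 349 genes at an unadjusted p under 0.05 and a smallest adjusted p of 0.767, and DESeq2 called 1 gene. The log2 fold change of tumour over cerebellum was 0.90 ± 0.60 for Mki67, 0.76 ± 0.52 for Gli1 and -2.11 ± 1.61 for Gabra6, with an edgeR adjusted p of 0.767 for each. Without the animal of BPtchD-FLY replicate 1 the values were 0.40 for Mki67 and -1.04 for Gabra6, and 0 genes were called. The difference of this effect between BPtchD-FLY and BPtch animals, a comparison added after the data were seen, had 0 genes called by edgeR, with 3098 at an unadjusted p under 0.05, and 979 by DESeq2.

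**Figure D5:**
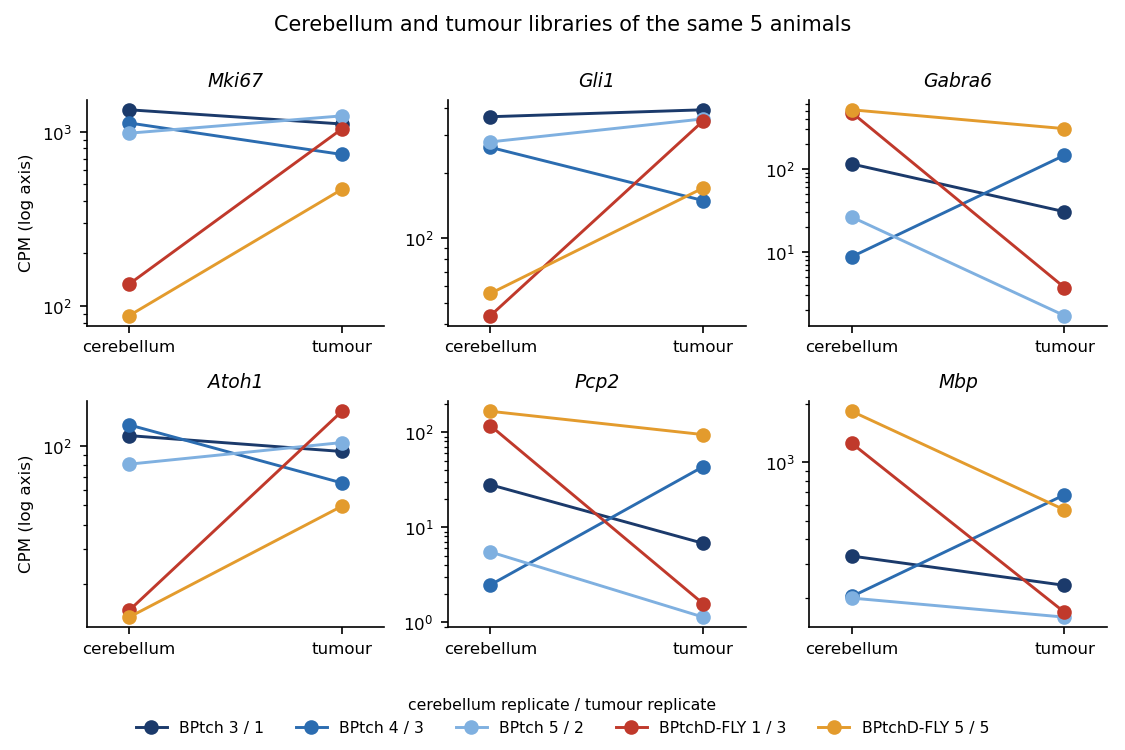
CPM (log axis) in the cerebellum and the tumour library of the same animal, 1 line per animal, for Mki67, Gli1, Gabra6, Atoh1, Pcp2 and Mbp. The 3 BPtch animals start at 979 to 1334 CPM of Mki67 in the cerebellum and the 2 BPtchD-FLY animals at 133 and 87.9 CPM, and Gabra6 is higher in the tumour than in the cerebellum in 1 of the 5 animals, that of BPtch replicate 4.

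Cerebella of animals with and without a tumour library were compared over the 10 BPtch and BPtchD-FLY animals with genotype as a term. This grouping comes from the labels and not from Mki67, although within BPtch both split the animals alike. It called 0 of 19300 genes by edgeR, 0%, with 839 at an unadjusted p under 0.05 and a smallest adjusted p of 0.658, and DESeq2 called 26. Mki67 differed by 3.60 ± 5.30, Gli1 by 1.10 ± 1.25 and Gabra6 by -1.60 ± 1.17, with edgeR adjusted p of 0.745, 0.698 and 0.658. Without BPtch replicate 1 the Mki67 difference was -0.70 and without BPtch replicate 2 it was -0.69, while without BPtchD-FLY replicate 1 it was 7.95 and without BPtchD-FLY replicate 5 8.05, the last with 12 genes called.

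A fit with an interaction, added after the data were seen, called 10741 of 19960 genes within BPtch, 53.8%, and 4 within BPtchD-FLY, 0.02%. The difference between the genotypes was called for 9872 genes, 49.5%. Within BPtch, animals with a tumour library had Mki67 higher by 9.45 ± 1.09 (edgeR adjusted p = 0.00138) and Gabra6 lower, at -3.98 ± 0.89 (edgeR adjusted p = 0.00546). Within BPtchD-FLY the values were -2.16 ± 0.76 and 0.79 ± 0.84, with edgeR adjusted p of 0.395 and 0.675, since replicates 2 and 3, which have no tumour library, had the highest Mki67 of that genotype. The difference was -11.60 ± 1.30 for Mki67 (edgeR adjusted p = 0.00267). All 16 proliferation genes were called lower, beside 24.6% of all genes. All 14 granule neuron and 11 Purkinje genes were called higher, beside 24.8% of all genes. Within BPtch the animals with a tumour library are exactly the 3 tumour-like ones, so the value within BPtch restates the sets. The difference between the genotypes contains that value, so its p-values and list counts are no test apart from the Mki67 rule. The counts moved with single animals: the 4 within BPtchD-FLY ran from 0 to 4906 as each of the 10 libraries was left out, the highest without BPtchD-FLY replicate 4, the 10741 became 6249 without BPtch replicate 1 and 6292 without BPtch replicate 2, and the 9872 became 4980 without BPtchD-FLY replicate 5.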

How the data were processed

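RNA-seq of mouse cerebellum and tumours was deposited by the authors as raw counts in a single file, 32075 genes by 257 libraries. The submitters' processing notes name HISAT2, featureCounts and the GRCm38 build. The sources used here give no version, annotation release or strand setting, so overlapping and antisense genes, and near-identical copies such as the globin genes, may share reads. RNA was extracted with Trizol and an RNeasy kit from flash-frozen tissue, per the labels' protocols. Groups came from the labels of genotype, age and tissue, and pairs of libraries from their animal numbers. Gene symbols matched 31695 identifiers.

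CPM were computed from the deposited counts over the library total, without TMM factors. The set ratio is the log2 ratio of mean CPM, and a gene counts as higher or lower where the libraries do not overlap. Tests used edgeR 4.0.16 in R 4.3.3 (TMM, filterByExpr with a minimum count of 10 and total of 15, quasi-likelihood F-test, two-sided, adjusted p under 0.05), with DESeq2 1.42.0, its size factors, no filter, other Mki67 thresholds, a pseudocount of 0.1 and each library left out as alternatives. Each standard error was obtained by dividing the absolute log2 fold change by the root of its F statistic. Counts of tumour-like libraries by genotype were compared by Fisher's exact test with full enumeration. Levels by genotype were compared as log2(CPM + 1) in exact permutation tests from scipy 1.17.1. Lowest chi-square per degree of freedom between 2 cerebella was 4.73, so no library was counted as a duplicate. The code was tested on simulated data.

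The sets, the 26 gene lists and the rule for named genes were chosen with earlier results of these data known. The rule names Mki67, Gli1, Gabra6, Ptch1, Ddx3x and Fabp7, the 12 highest and 12 lowest set ratios without overlap at a mean of at least 20 CPM, the 8 largest rises and falls of each edgeR comparison, the 10 genes closest to Mki67 and up to 5 members of each list, without predicted genes. Other list members, Xist and the Y-linked genes were named after their values were seen. One member of the Shh lists is counted but not reported here. Counts were read with pandas 2.3.3 and numpy 2.4.6, and figures were drawn with matplotlib 3.10.9.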

Additional observations from a re-analysis of the deposited data

Results flagged for a closer look

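Gabra6, the granule neuron receptor gene, was at 306 CPM in BPtchD-FLY tumour replicate 5, far above the other 4 tumours of that genotype at 3.74 to 68.1 CPM. That tumour belongs to the animal of BPtchD-FLY cerebellum replicate 5. Gabra6 was also far from the rest in BPtchD-FLPlus tumour replicate 5, at 47.5 CPM against 1.10 to 11.3 CPM. Fabp7, the gene whose promoter drives the Cre, was at 50.1 CPM in BPtch tumour replicate 2, below the other 4 at 76.7 to 84.6 CPM, and at 117 CPM in BPtchD-FLY tumour replicate 2, above the other 4 at 25.9 to 33.4 CPM. These are 4 of 36 groups of values looked at, and chance marks about 1 group in 20.

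In BPtch the animals with a tumour library are exactly the tumour-like ones, so the next comparison is not independent of the Mki67 rule. For 9872 genes, the difference between animals with and without a tumour library differed between BPtchD-FLY and BPtch by the interaction test of edgeR. Leaving out BPtchD-FLY replicate 5 gave 4980.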

How the results depend on the processing

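The number of genes that separate the tumour-like from the tumour-free cerebella moved from 2789 to 1574 with thresholds of 50 and 20 CPM of Mki67 and to 8377 with 200 and 5 CPM. Leaving out 1 library gave 2794 to 4824. DESeq2 called 26 genes between animals with and without a tumour library, 76 within BPtchD-FLY, 1 between tumour and cerebellum of the same animal and 979 for the genotype difference of that effect. Without the low-count filter the call was 18 within BPtchD-FLY and 1 for that genotype difference. Leaving out 1 library in turn gave 0 to 12 genes for the tumour library comparison, 6249 to 12482 within BPtch, 0 to 4906 within BPtchD-FLY and 4980 to 12351 for their difference.

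Signs turned in differences that had not passed a test, some of them large. The set ratio of Ddx3x was -0.0924 with TMM-scaled library sizes and -0.0434 with thresholds of 50 and 20 CPM. By genotype, leaving out 1 library gave -0.22 to 2.13 for Mki67 in BPtchD-FLY, -0.0575 to 2.98 for Mki67 in BPtchD-FLPlus, -0.90 to 0.11 for Gli1 in BPtchD-FLY, -0.16 to 0.96 for Gli1 in BPtchD-FLPlus and -0.82 to 1.35 for Gabra6 in BPtchD-FLPlus, which was -0.0240 at a pseudocount of 0.1. In the tumour library comparison it gave -0.70 to 8.05 for Mki67, which is 3.60 over all libraries, and -0.14 to 2.40 for Gli1, and within BPtchD-FLY -0.34 to 0.94 for Fabp7. For the genotype difference between tumour and cerebellum it gave -0.62 to 0.43 for Fabp7, with 0.209 without the animal of BPtch replicate 3 and 0.00531 without that of replicate 4, and -5.88 to 0.28 for Gabra6, which is -2.67 over all animals. The cause was not tested.

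Of same-numbered pairs of libraries, 2 of 5 and 21 of 75 correlated above 0.1 in their deviations from the group mean. Pairs with different numbers were not compared, so whether replicate numbers mark a pairing was not settled. They were not used as pairs in the main fits. With the replicate number as a block the tumour library comparison called 0 genes and tumours against normal cerebella 16407, beside 15823 without the block. Of 5901 values for single named genes under an alternative, 5871 kept direction and side of the threshold, and most of these belong to tumours against normal cerebella. Of 329 values for gene counts and genotype comparisons, 292 stayed the same, 13 turned in sign and 24 moved in count. With 3 to 5 animals per genotype, differences by genotype smaller than the spread between animals could not be seen, and the 614465 counts of BPtchD-FLY replicate 1 leave genes of low level at or near 0 there.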

Other observations

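A few further genes differed between the sets in ways no comparison above describes. Among immediate early genes, Arc, a gene of neuronal activity, was lower without overlap at 1.44 to 14.6 CPM in tumour-like against 19.9 to 26.9 CPM in tumour-free cerebella. Egr2, a zinc finger transcription factor gene of the same list, went the other way, with a median of 4.29 CPM in the 11 tumour-like libraries and 0.0724 CPM in the 5 tumour-free ones, and it overlapped because BPtchD-FLY replicate 1, the shallow library, was at 0. In the labelled tumours Egr2 had 3.95 to 11.3 CPM and in the normal background 0 to 0.397 CPM. Cd4, a gene of T helper cells and some myeloid cells, had a median of 2.58 CPM in tumour-like and 0.0736 CPM in tumour-free cerebella and overlapped through the same library, while the T cell receptor genes Cd3d and Cd3g had medians of 0 and 0.0516 CPM in the tumour-like ones.

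Sex-chromosome genes, looked at after the other values were seen, varied among the Shh-model libraries. BPtch cerebellum replicate 3 had 452 CPM of Xist with 0.143 CPM of Ddx3y, and the tumour of the same animal had 175 CPM of Xist, whereas the 8 female-labelled Shh-model cerebella had 1374 to 3706 CPM. BPtch cerebellum replicate 4 had 7.70 CPM of Ddx3y and 6.35 CPM of Kdm5d beside 83.7 CPM of Eif2s3y and 35.8 CPM of Uty, and the tumour of that animal had 18.5, 14.6, 87.6 and 30.7 CPM of these genes in the same order. BPtchD-FLPlus tumour replicate 2 had 78.3 CPM of Xist.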
